A study of Homo sapiens with 3 samples.

Results

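ZNF genes encode zinc finger proteins, most of which bind DNA through repeated C2H2 fingers, short folds in which paired cysteines and paired histidines hold a zinc ion. Many of them also carry a KRAB domain, which recruits the co-repressor TRIM28 and, through it, the histone methyltransferase SETDB1, so that chromatin at the bound sites is silenced. Others are activators, RNA-binding proteins or ribosome assembly factors that share only the name. In human cells the KRAB zinc finger genes lie largely in clusters on chromosome 19 and are transcribed at low levels.

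The genes described here were selected on their name and their measured read counts: protein-coding genes named ZNF and a number, with a mean of at least 300 reads over the 3 libraries and at least 90% of those reads placed uniquely. Of 58243 genes in the tables, 510 were protein-coding ZNF genes, and 111 of them met both conditions. A further 317 had fewer than 300 reads on average, including 32 with no read in any library, and 82 had enough reads but less than 90% unique. These 111 genes were therefore the more abundant and less repetitive part of the family. The read minimum separated ZNF180, ZNF804A and ZNF611 (302, 302 and 304 reads on average) from ZNF226, ZNF239 and ZNF614 (297, 293 and 290 reads). The uniqueness minimum separated ZNF140 and ZNF804A (90.04% and 90.7% unique) from ZNF462 and ZNF598 (89.6% and 89.5%). ZNF598, the ubiquitin ligase that senses collided ribosomes, was left out on that ground although it had 4072 reads on average.

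The 3 RNA-seq libraries came from cells labelled LoVo, a colorectal carcinoma line, and all 3 carried an inducible (Tet-On) short hairpin RNA against HRD1. HRD1, the product of SYVN1, is the ubiquitin ligase that marks misfolded proteins of the endoplasmic reticulum for degradation. The labels give 1 µg/ml doxycycline, applied for 0, 3 or 5 days. The study asked which genes respond to the endoplasmic reticulum stress that HRD1 knockdown brings. There was 1 library per time, no doxycycline-treated line without the hairpin among them, and no replicate, so each ratio compares libraries and no test was possible. Intervals in square brackets are exact, at 95%, and hold the error of counting alone.

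SYVN1 (ENSG00000162298, chr11:65121780-65134533, minus strand, GRCh38) had 1212 reads in the day 0 library, 650 at day 3 and 709 at day 5, or 56.1, 30.4 and 27.0 normalised CPM (counts scaled to library size). Its log2 ratio to day 0 was -0.88 [-1.02 to -0.74] at day 3 and -1.05 [-1.19 to -0.92] at day 5. The libraries held 21308785, 22068686 and 25754188 reads. The labelled cell type was only partly borne out by markers: KRT8, KRT18 and KRT19 were present, but 9 of 12 epithelial and colon markers were below 1 TPM (transcript abundance corrected for length) in every library, and CDX1 and CDX2 had no read. Of 8 mesenchymal markers, 3 (CDH2, COL1A2 and TWIST1) were below 1 TPM in every library. Their summed level in the day 0 library was 4107 TPM, of which VIM alone made up 4016 TPM. Of 12 liver and blood markers, 7, 6 and 0 had no read at day 0, day 3 and day 5, with 0, 0 and 114 reads for ALB, and their summed level was 799, 667 and 736 TPM, most of it from SERPINA1. Their part in the day 5 values below was not tested.

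The fingers differ in base composition between members, and base composition is a property with which the day 5 over day 3 ratio moved (below). To show this, a finger with its linker to the next finger is printed from each of the 2 members of lowest and the 2 of highest transcript GC content, among 76 members that held such a finger. Capitals mark the codons of the paired cysteines and paired histidines, and the bases after the last capitals encode the linker.
ZNF148: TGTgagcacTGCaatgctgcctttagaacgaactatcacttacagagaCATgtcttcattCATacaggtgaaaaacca
ZNF718: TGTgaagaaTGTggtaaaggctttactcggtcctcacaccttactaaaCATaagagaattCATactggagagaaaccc
ZNF628: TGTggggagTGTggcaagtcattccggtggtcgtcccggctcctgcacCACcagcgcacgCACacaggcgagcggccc
ZNF865: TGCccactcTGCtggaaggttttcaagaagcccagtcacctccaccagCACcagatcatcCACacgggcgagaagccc

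Each stretch is 78 bases long and encodes 26 residues, read from GENCODE 29 transcripts on GRCh38. The genes lie at chr3:125225561-125375354 (ZNF148, minus strand), chr4:124480-163989 (ZNF718, plus), chr19:55476332-55484487 (ZNF628, plus) and chr19:55605405-55617269 (ZNF865, plus). GC content of the printed finger was 41.0% in ZNF148 and ZNF718, 69.2% in ZNF628 and 59.0% in ZNF865, whereas their longest transcripts had 35.6%, 36.3%, 70.4% and 71.1%. ZNF718 and ZNF628 were identical at 43 of 78 bases and 16 of 26 residues, the highest residue identity among the 6 pairs. The histidine codons were CAT in both AT-rich genes and CAC in both GC-rich genes.

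Fingers were counted in the translated coding sequence of each member. The median member had 9 C2H2 matches, with a range from 0 to 31. ZNF185, a LIM domain protein of the actin cytoskeleton, ZNF703 and the nucleolar protein ZNF330 had no match. A strict KRAB-like pattern was found in 35 of the 111 members (31.5%), and a looser pattern, chosen after the data were seen, in 44 (39.6%). Among the 316 ZNF genes under 300 reads with a coding sequence, the strict pattern was found in 184 (58.2%). The genes with enough reads were thus poorer in KRAB-like proteins than those left out by the read minimum. On chromosome 19 lay 33 members (29.7%), against 178 of the 317 genes under 300 reads (56.2%).

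Levels between genes are compared as TPM, which corrects for exon length. The highest mean level was that of ZNF622, which helps mature the large ribosomal subunit, with 263, 307 and 289 TPM at day 0, day 3 and day 5. ZNF185 followed with 117, 105 and 110 TPM, then ZNF768, ZNF787, ZNF367 and ZNF282 with means of 95.7, 81.1, 73.3 and 67.2 TPM. ZNF644, a partner of the H3K9 methyltransferases EHMT1 and EHMT2, and ZNF697 had means of 58.0 and 54.6 TPM. At the other end stood ZNF280D, ZNF26, ZNF704 and ZNF589 with means of 3.48, 4.21, 4.42 and 4.81 TPM. None of the 8 most abundant members had a strict KRAB-like match, and ZNF282 had one by the looser pattern.

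At day 3 the ZNF genes stood slightly lower against day 0 than other genes did. Their median log2 ratio was -0.05, against 0.02 in 6823 protein-coding genes with the same minima (the background, which includes them). Of the 111 members, 71 (64.0%) lay below 0, against 45.0% of the background. The middle 50% of members lay between -0.17 and 0.05, so most differences were small. In bulk RNA, fewer transcribing cells and less RNA per cell cannot be told apart.

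A gene was counted as lower or higher where its level was at least 20% lower or at least 25% higher, the same fold in either direction, with an interval that left out no change. At day 3 over day 0, 11 members were lower by this rule, or 9.91%, against 4.57% of the background. In the other direction 2 members were higher, or 1.80%, against 4.85% of the background. At 1.5-fold, 1 member was lower, against 0.293% of the background, and 0 were higher, against 0.235%. An interval below no change was found in 36 members (32.4%), against 1487 of 6823 background genes (21.8%). One above it was found in 13 of 111 members, against 2137 of 6823 background genes.

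**Figure D1:**
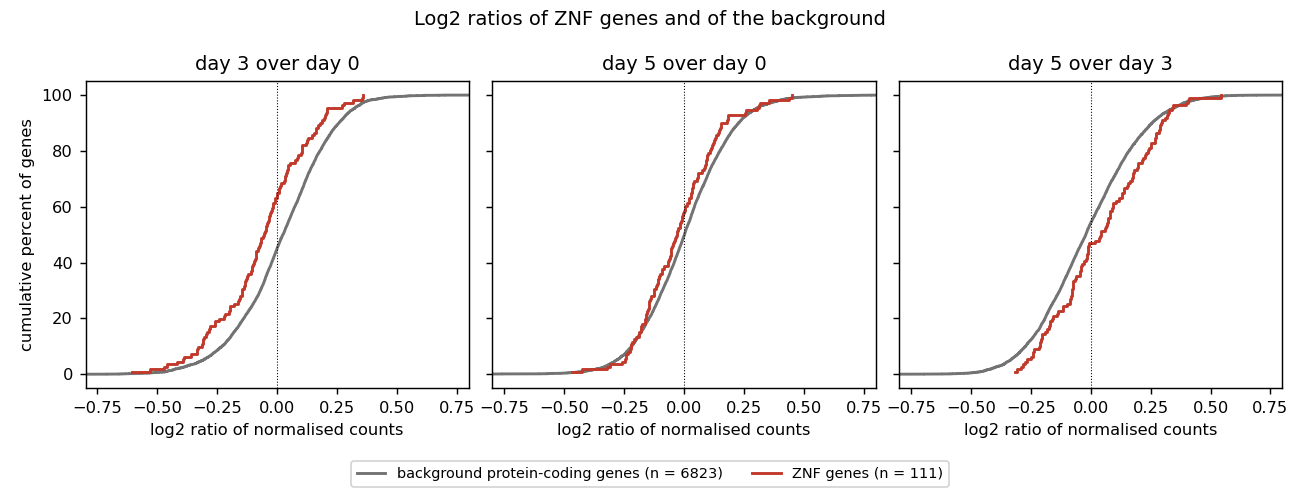
Cumulative percent of genes (vertical axis) by log2 ratio of normalised counts (horizontal axis) for the 111 ZNF genes in red and the 6823 background genes in grey, in each of the 3 comparisons of 1 library with another. The ZNF curve lies to the left of the background at day 3 over day 0 (medians -0.05 and 0.02), close to it at day 5 over day 0, and to its right at day 5 over day 3 (medians 0.04 and -0.02).

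Across the 3 libraries, 50 members (45.0%) had their lowest level at day 3, against 30.7% of background genes. The highest level fell at day 0 for 47 members (42.3%), against 27.6% of the background. Summed over the 111 genes the level was 4101, 3935 and 4038 normalised CPM. The day 3 dip was thus spread over many genes and small in sum.

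ZNF292 (ENSG00000188994, chr6:87152833-87264196, plus strand) was the member counted as lower by 1.5-fold. It had 698, 453 and 812 reads, or 32.3, 21.2 and 30.9 CPM. The day 3 library was low and the other two were close to each other, with log2 ratios to day 0 of -0.61 [-0.78 to -0.43] and -0.06 [-0.21 to 0.09]. ZNF292 is a large protein whose loss is linked to neurodevelopmental disorders.

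ZNF236 (ENSG00000130856, chr18:76822607-76970727, plus strand) had 508, 347 and 459 reads, or 23.5, 16.2 and 17.5 CPM. Both doxycycline libraries lay below day 0, at -0.53 [-0.73 to -0.33] and -0.43 [-0.61 to -0.24]. With 30 matches it was among the members richest in C2H2 fingers. ZNF618 (ENSG00000157657, chr9:113876282-114056591, plus strand), which binds 5-hydroxymethylcytosine, had 920, 655 and 981 reads and ratios of -0.47 [-0.62 to -0.33] at day 3 and -0.19 [-0.32 to -0.06] at day 5. It too was lowest at day 3 and between the others at day 5.

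ZNF704 (chr8:80628451-80874781, minus strand) had 398, 286 and 466 reads, or 18.4, 13.4 and 17.8 CPM, a day 3 ratio of -0.46 [-0.68 to -0.24]. The KRAB gene ZNF718 had 353, 261 and 427 reads, or 16.3, 12.2 and 16.3 CPM, a day 3 ratio of -0.42 [-0.66 to -0.18]. Both were back at the day 0 level in the day 5 library, at -0.05 [-0.25 to 0.14] and -0.01 [-0.21 to 0.20]. More than 50% of the reads of ZNF718 were intronic (199, 143 and 218 reads), so its values describe unspliced or intron-retaining RNA as much as spliced mRNA.

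The other members counted as lower at day 3 were ZNF33A (-0.39 [-0.58 to -0.21]), ZNF532 (-0.39 [-0.54 to -0.24]), ZNF516 (-0.36 [-0.59 to -0.13]), ZNF106 (-0.34 [-0.42 to -0.25]), ZNF609 (-0.33 [-0.45 to -0.22]) and ZNF521 (-0.33 [-0.52 to -0.14]). ZNF106, an RNA-binding protein with 2694, 2109 and 3028 reads, was the best measured of them. ZNF516 is an activator of brown fat genes, and ZNF609 is best known for the circular RNA made from its transcript, which these gene counts do not separate. ZNF521 is a co-regulator of blood and neural progenitors. At day 5 ZNF609 and ZNF521 remained below day 0, at -0.24 [-0.35 to -0.14] and -0.26 [-0.43 to -0.08].

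Most of these genes were long. Of the 11 members counted as lower at day 3, 10 exceeded the median exon length of all members, 6170 bases, and the background median was 5304 bases. ZNF718 was the shortest of the 11, with 4118 bases, and ZNF704 the longest, with 15008 bases.

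ZNF622 (ENSG00000173545, chr5:16451519-16465792, minus strand) and ZNF706 (ENSG00000120963, chr8:101177878-101206193, minus strand) were the members counted as higher at day 3. ZNF622 had 2221, 2812 and 2997 reads, or 103, 132 and 114 CPM, with ratios to day 0 of 0.36 [0.28 to 0.44] and 0.15 [0.07 to 0.23]. It was highest at day 3. ZNF706, a small protein with a single finger match, had 1141, 1443 and 1727 reads, or 52.8, 67.6 and 65.8 CPM. Both of its doxycycline libraries lay above day 0, at 0.36 [0.24 to 0.47] and 0.32 [0.21 to 0.43].

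Smaller positive ratios at day 3, none of them 25% above day 0, were those of ZNF202, a SCAN and KRAB repressor of lipid genes (0.32 [0.09 to 0.55]), ZNF319 (0.28 [0.07 to 0.49]) and ZNF408 (0.27 [0.08 to 0.47]). Those of ZNF212, ZNF330, ZNF768, ZNF777 and ZNF324B were 0.20 or 0.21. ZNF319 and ZNF768 overlap other coding genes, USB1 and AC002310.5, and with no strand stated for the counting their reads may be shared.

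**Figure D2:**
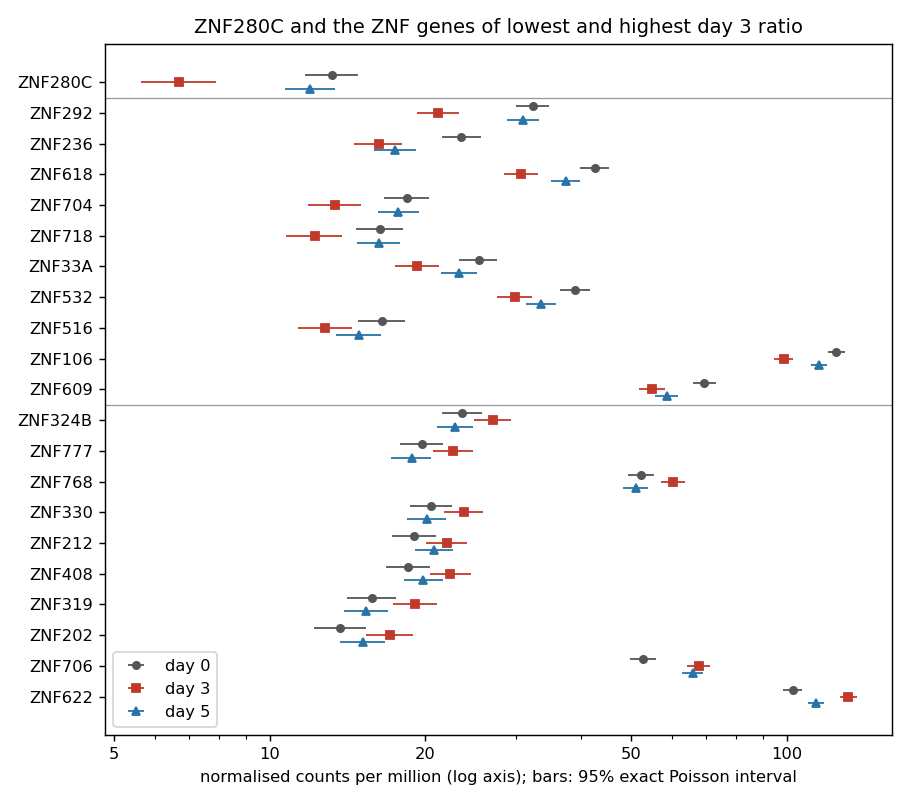
Normalised CPM on a log axis, with 95% exact Poisson intervals, in the day 0, day 3 and day 5 library for ZNF280C (top), the 10 members of lowest and the 10 of highest day 3 over day 0 ratio. In the middle block the red day 3 squares lie left of day 0 in all 10 genes, and the blue day 5 triangles lie between them and day 0.

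ZNF280C (ENSG00000056277, chrX:130202711-130268899, minus strand), a DNA repair factor with 7 finger matches that had marked this gene group, fell short of the read minimum with a mean of 248 reads and is described beside the members. It had 285, 143 and 315 reads, or 13.2, 6.70 and 12.001 CPM. Day 3 stood at 0.509 times day 0, or -0.98 on the log2 scale [-1.28 to -0.68]. Its day 5 level was close to day 0, at -0.14 [-0.37 to 0.10], and above day 3 by 0.84 [0.55 to 1.14]. All its reads were unique, and its exon length of 4634 bases was below the median of the members.

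The dip of ZNF280C was larger than that of any of the 111 members, whose lowest ratio was the -0.61 of ZNF292. Across the 3 libraries, the members whose levels, divided by their mean, lay nearest to those of ZNF280C were ZNF292, ZNF704, ZNF718, ZNF618 and ZNF33A, at Euclidean distances of 0.158, 0.227, 0.242, 0.248 and 0.272. Each was lowest at day 3, which follows from choosing them by likeness to ZNF280C and is no separate result.

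At day 5 the ZNF genes were spread around day 0 about as other genes were. Their median ratio was -0.03, against 0.00 in the background, and 64 of 111 (57.7%) lay below 0, against 49.6% of the background. By the same rule, the lower members numbered 3, or 2.70%, against 3.09% of the background, and 3 others were higher, or 2.70%, against 3.88%. At 1.5-fold 0 members were lower and 0 higher, against 0.205% and 0.381% of the background. Both shares by the first rule, of 3 members each, were near those of the background.

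The lower members at day 5 were ZNF865, ZNF236 and ZNF703. ZNF865 (ENSG00000261221), one of the GC-rich genes shown above, had 960, 793 and 844 reads, or 44.4, 37.1 and 32.2 CPM, and ratios of -0.26 [-0.40 to -0.12] at day 3 and -0.47 [-0.60 to -0.33] at day 5. Its 3 levels descended with time. ZNF703, a co-repressor amplified in luminal breast cancers, had 385, 368 and 374 reads, or 17.8, 17.2 and 14.2 CPM, a day 5 ratio of -0.32 [-0.53 to -0.11]. Here the day 5 library alone was low.

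Further down-shifts at day 5 of less than 20% were those of ZNF687 (-0.31 [-0.45 to -0.16]), ZNF513 (-0.25 [-0.47 to -0.03]), ZNF26 (-0.24 [-0.42 to -0.06]), ZNF496 (-0.23 [-0.35 to -0.12]) and ZNF746 (-0.23 [-0.36 to -0.09]). ZNF746, also called PARIS, represses the mitochondrial co-activator PGC-1alpha. ZNF687 and ZNF513 overlap PI4KB and SNX17.

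The higher members at day 5 were ZNF140, ZNF260 and ZNF518A. ZNF140 (ENSG00000196387, chr12:133079838-133107544, plus strand), a KRAB protein, had 271, 303 and 450 reads, or 12.5, 14.2 and 17.1 CPM, a day 5 ratio of 0.45 [0.23 to 0.67]. It overlaps ZNF891 and had 90.04% unique reads, so its value is uncertain. ZNF260 (ENSG00000254004, chr19:36510695-36528660, minus strand) had 250, 269 and 412 reads, or 11.6, 12.6 and 15.7 CPM, a ratio of 0.44 [0.21 to 0.67]. ZNF518A, which overlaps BLNK, had 675, 682 and 1050 reads and a ratio of 0.36 [0.22 to 0.50]. In ZNF260 and ZNF518A the day 0 and day 3 libraries were close and the day 5 library was high, whereas in ZNF140 the day 3 library lay between the others.

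Among the other members with a positive ratio at day 5 were ZNF121 (0.31 [0.17 to 0.46]), ZNF804A (0.30 [0.08 to 0.54]), ZNF326 (0.26 [0.13 to 0.38]), ZNF367 (0.25 [0.16 to 0.35]), ZNF561 (0.19 [0.01 to 0.36]) and ZNF638 (0.18 [0.09 to 0.28]). ZNF326 belongs to the DBIRD complex, which links elongation by RNA polymerase II to splicing. ZNF638 binds unintegrated retroviral DNA and recruits the HUSH silencing complex.

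From day 3 to day 5 the median member was higher by 0.04, whereas the background median was -0.02. By the 20% and 25% rule 0 members were lower, against 6.05% of the background, and 8 members, or 7.21%, were higher, against 5.72%. At 1.5-fold 0 were lower and 0 higher, against 0.161% and 0.22%. This comparison shares its day 3 library with the one above, so it holds no separate account of the day 3 dip.

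The highest ratios of day 5 over day 3 were those of ZNF292 (0.54 [0.38 to 0.71]), ZNF718 (0.41 [0.19 to 0.64]), ZNF704 (0.41 [0.19 to 0.62]), ZNF780B (0.40 [0.19 to 0.61]), ZNF804A (0.34 [0.11 to 0.58]) and ZNF148 (0.34 [0.21 to 0.47]). ZNF148, also called ZBP-89, binds GC boxes and had 902, 765 and 1189 reads. Lowest were ZNF319 (-0.32 [-0.52 to -0.11]), ZNF574 (-0.31 [-0.46 to -0.16]), ZNF513 (-0.29 [-0.51 to -0.08]), ZNF76 (-0.28 [-0.39 to -0.18]), ZNF703 (-0.27 [-0.49 to -0.06]) and ZNF777 (-0.27 [-0.45 to -0.08]). The 6 high genes had transcript GC contents from 35.6% (ZNF148) to 42.6% (ZNF804A), and the 6 low genes from 55.6% (ZNF76) to 65.2% (ZNF703).

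Exon length and base composition moved with the ratios of ZNF genes and of the background alike. Across the 111 members, Spearman's rho of the day 3 over day 0 ratio with exon length was -0.44, and across the 6823 background genes it was -0.55. For day 5 over day 3 with transcript GC content it was -0.66 over 111 members and -0.64 over 6822 background genes. These are descriptions across genes of the same libraries, and genes are not replicates.

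When the background was divided into 8 equal groups by exon length, the longest group (over 10059 bases) had a median day 3 ratio of -0.16 in the background and -0.22 in its 19 members. In the shortest group (under 2544 bases) the medians were 0.20 and 0.21, with 4 members. Between 3509 and 4400 bases they were 0.08 and -0.03, and 11 of 14 members lay below the background median. Between 6405 and 7781 bases the order was the other way, with a background median of -0.03 and a median of 0.05 in the members, of which 5 of 13 lay below the background. Over all 8 groups, 68 of 111 members lay below the median of background genes of their own length, and 79 of 111 below that of background genes of their own GC content.

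With a smooth trend on exon length removed, the median of the members was -0.018 and stood below that of the background by 0.04 rather than 0.08, with 7 members (6.31%) at least 20% lower and 1 (0.901%) at least 25% higher. In the background 2.30% were then lower and 3.14% higher. With trends on both length and GC content removed, 6 members (5.41%) were lower and 1 higher, against 2.26% and 3.08% of the background, and the medians differed by 0.05. The counts were thus smaller in members and background alike. ZNF292 was no longer 1.5-fold lower in either setting.

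**Figure D3:**
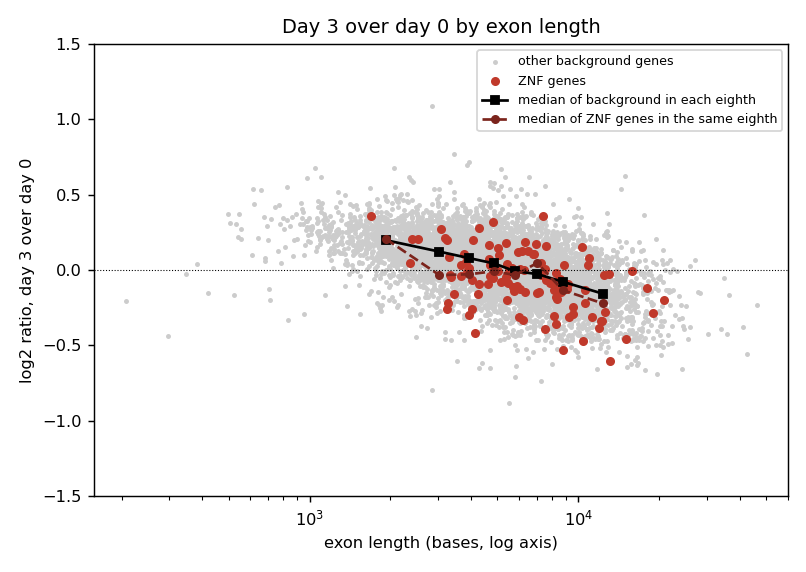
Log2 ratio of day 3 over day 0 (vertical axis) by exon length in bases (horizontal log axis) for ZNF genes in red and other background genes in grey, with medians in 8 equal groups by length. The background line descends from 0.20 among the shortest genes to -0.16 among the longest. The ZNF line starts at 0.21 (4 genes) and ends at -0.22 but does not descend steadily. It stands at -0.03 between 2544 and 3509 bases and at 0.05 between 6405 and 7781 bases.

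**Figure D4:**
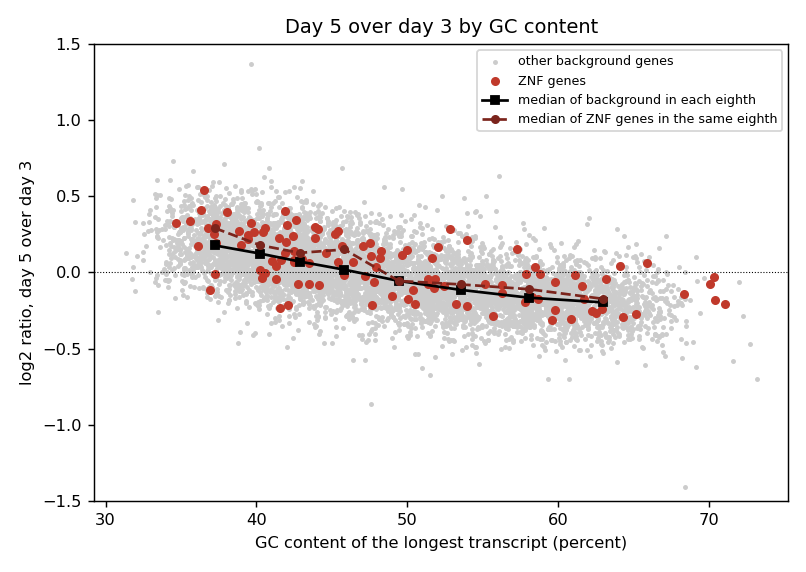
Log2 ratio of day 5 over day 3 (vertical axis) by GC content of the longest transcript in percent (horizontal axis) for ZNF genes in red and other background genes in grey, with medians in 8 equal groups by GC content. The background median goes from 0.18 in the most AT-rich group to -0.20 in the most GC-rich, and that of the ZNF genes from 0.29 to -0.17.

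Messenger RNAs of zinc finger genes are known as short-lived, and RNA half-lives were not measured in these libraries. A list of 46 genes of well-known short-lived mRNAs (immediate early genes, feedback inhibitors and chemokines) gives the levels of such mRNAs instead. Of these, 44 had a mean of at least 50 reads. Their median ratio was 0.14 at day 3, with 7 of 44 below 0, and 0.05 at day 5. At day 3, 8 (18.2%) were at least 25% higher and 0 lower by 20%, against 4.85% and 4.57% of the background. These sets are unlike, since background genes had at least 300 reads, 90% of them unique, and the list had no uniqueness minimum. The largest ratios were those of TXNIP (0.84 [0.55 to 1.15]), CXCL8 (0.80 [0.40 to 1.21]) and ATF3 (0.58 [0.30 to 0.86]). These genes had fewer than 300 reads in every library. The list's median thus lay above day 0 and that of the ZNF genes below it. Levels depend on transcription as well as on lifetime, so this contrast cannot tell how lifetime moved ZNF mRNAs. The median exon length of the list was 2851 bases, and the background genes between 2544 and 3509 bases had a median of 0.12. Whether length or mRNA lifetime has a part in the ZNF ratios was not tested.

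Reads within introns, which come from unspliced RNA, were lower at day 3 in ZNF genes and in the background alike. They made up 8.23% [8.05 to 8.42], 6.74% [6.57 to 6.91] and 8.26% [8.09 to 8.43] of the members' reads at day 0, day 3 and day 5. In the background the shares were 3.91%, 3.09% and 3.85%. Members with the strict KRAB-like pattern had 12.7%, 9.87% and 12.5%, and those without it 6.996%, 5.90% and 7.07%. The order of the groups was the same in each library.

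The summed intron reads of the members had a log2 ratio of -0.35 at day 3, against -0.28 in the background, and their exon reads -0.04, against 0.07. Of the 76 members with a mean of at least 20 intron reads over those libraries, 65 lay below 0 in intron reads, with a median of -0.37. In the background the median was -0.29 and 78.5% lay below 0. From day 3 to day 5 the members' summed intron reads were higher by 0.33 and those of the background by 0.24. Counted on exon reads alone, the members' median at day 3 was -0.03 against 0.05, the same distance of 0.08 as with all reads, and at day 5 over day 3 it was 0.00.

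**Figure D5:**
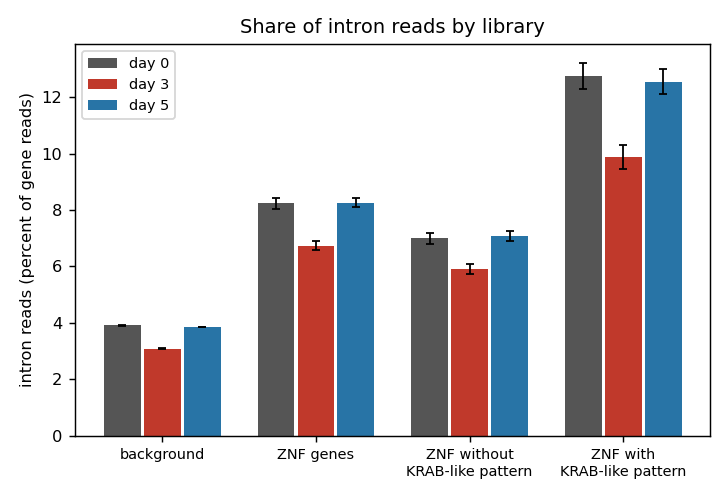
Intron reads as a percent of all reads of the genes in the day 0, day 3 and day 5 library, for the background, all ZNF genes, and ZNF genes without and with the strict KRAB-like pattern, with exact 95% binomial intervals of counting error. Each group has its lowest share at day 3 (3.09%, 6.74%, 5.90% and 9.87%).

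Reads across exon junctions made up 30.9%, 30.7% and 29.1% of the members' exon reads, against 66.6%, 67.4% and 63.7% in the background. ZNF genes typically hold all their fingers and a long untranslated end in the last exon. The share was lowest at day 5 in both.

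By structure, the 35 members with a strict KRAB-like match had a median day 3 ratio of -0.09 and the 76 without it -0.04. The 2 at least 20% lower in the first group were ZNF718 and ZNF33A, or 5.71%, and the second held 9 lower (11.8%) and 2 higher (2.63%), against 4.57% and 4.85% of the background. With the looser pattern the medians were -0.07 (44 genes) and -0.05 (67 genes). By number of fingers, the 47 members with 10 or more had a median of -0.09, and 7 (14.9%) were lower and 0 higher. The 39 with 5 to 9 had a median of 0.01, with 0 lower and 0 higher. The 22 with 1 to 4 had a median of -0.04, with 4 (18.2%) lower and 2 (9.09%) higher. The 3 with 0 had a median of -0.05, with 0 lower and 0 higher. These groups differed in length, with median exon lengths of 6023, 6041, 8661.5 and 3349 bases in the order given. With and without the strict KRAB-like match the median lengths were 5811 and 6569 bases. No test of these differences was possible.

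The 33 members on chromosome 19 had a median day 3 ratio of -0.05, and 0 of them were counted as lower or higher. The 78 on other chromosomes had -0.06, with 11 (14.1%) lower and 2 (2.56%) higher. All 389 background genes of chromosome 19 together, which are GC-rich with a median of 59.8% against 44.6% in its ZNF members, had a median of 0.09. Of these 389 genes 4 (1.03%) were lower and 31 (7.97%) higher, so a count of 0 lower among its ZNF genes was near the share of the chromosome itself. At day 5 over day 3 the medians on chromosome 19 were -0.01 for ZNF genes and -0.19 for the background.

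Other families of C2H2 genes were counted under the same minima. Of 23 ZBTB genes, which join fingers to a BTB dimerisation domain, 19 lay below 0 at day 3, with a median of -0.10, and their median at day 5 over day 3 was 0.16. The 7 ZSCAN and ZKSCAN genes had medians of -0.19 and 0.18. The 9 KLF genes, activators and repressors with few fingers, had -0.01 and 0.12. The day 3 medians of the ZBTB genes and of the ZSCAN and ZKSCAN genes were thus below the -0.05 of the ZNF genes.

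Co-repressors that KRAB proteins recruit and enzymes of H3K9 methylation, 31 genes in all, had a median of -0.06 at day 3. Below 0 lay 20 (64.5%), against 45.0% of the background. An interval below no change was found in 14 (45.2%), against 21.8%. Of these genes 2 (6.45%) were at least 20% lower and 0 higher, against 4.57% and 4.85% of the background. Only by the 20% rule was the share of lower genes thus near that of the background. This list too had no uniqueness minimum. TRIM28 had 20858, 22278 and 22012 reads, with ratios of 0.11 [0.08 to 0.14] and -0.20 [-0.23 to -0.18]. SETDB1, with 84.7% of its reads unique, had a day 3 ratio of 0.19 [0.02 to 0.36]. The 4 farthest from 0 were EHMT1 (-0.37 [-0.47 to -0.27]), ATF7IP (-0.34 [-0.43 to -0.24]), CBX5 (-0.32 [-0.40 to -0.25]) and ATRX (-0.32 [-0.42 to -0.21]). The shortest of these 4, ATF7IP, has 13189 bases of exon, whereas TRIM28 has 4034 bases. TRIM28 and SETDB1 were thus above day 0 at day 3, while CBX5, the heterochromatin protein HP1 alpha, and ATF7IP, a cofactor of SETDB1, were below it.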

How the data were processed

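RNAiso Plus and a SMARTer mRNA-seq kit served to extract total RNA and to build the libraries, per the labels' protocols. For strand use, aligner and counting program, nothing is given in the sources used here. The deposited tables give read counts per gene (total, unique, exon, exon-exon and intron reads) and the authors' TPM, per the file headers. A table of the whole series, with 3 sample columns, was not used. The submitters' processing notes name mm10, a mouse build, but the gene identifiers are human: 57980 of 58243 are in GENCODE 29, and 56577 (97.6%) of these match its GRCh38 start and end, so all coordinates are GRCh38.

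Total gene reads were scaled with TMM factors (edgeR 4.0.16, R 4.3.3; 1.01, 0.968 and 1.02). Log2 ratios used a prior count of 0.5 and exact conditional (Clopper-Pearson) 95% intervals. A count of 3 reads is 0.139, 0.140 and 0.114 CPM. The Python 3.11.15 packages were scipy 1.17.1, numpy 2.4.6, statsmodels 0.14.6, pandas 2.3.3, biopython 1.88 and matplotlib 3.10.9. Fingers and KRAB-like patterns were sought in translated GENCODE 29 coding sequences, in place of the RefSeq proteins first planned, taking the longest coding sequence of each gene. For printed fingers, members on chromosome 8 were not considered. Trends were removed with lowess (span 0.3, 3 rounds). Intervals and calls were tried on simulated counts that held counting error alone, so this check cannot show error between replicate libraries. The libraries carry no stated molecular identifiers, so intervals cover counting error only.

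Genes named are ZNF280C, SYVN1, the 10 lowest and 10 highest ratios of each day over day 0 and the 6 of day 5 over day 3 among members whose interval left out no change, the 8 highest and 4 lowest mean TPM, the extremes of length, those nearest the minima, up to 4 per list, and the 5 nearest to ZNF280C. TRIM28 and SETDB1, ZNF628 and those named for structure were added after values were seen. Members and lists were chosen with earlier results of these data known. Alternatives were library totals, DESeq2 1.42.0 size factors, TPM with 0.5 added, unique or exon reads, a prior count of 5, other minima, removed trends and removal of 23 members that overlap another coding gene.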

Additional observations from a re-analysis of the deposited data

How the results depend on the processing

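With 1 library per time no replicate error exists, and no statement here reaches beyond these libraries. No paired analysis was possible because each time has 1 library. Low read numbers limit the genes near the minimum. Of 464 values of named genes under 8 other settings, 436 stayed within the interval first given, 28 left it and 0 changed sign. The members' day 3 median lay -0.08 from that of the background. Library totals and DESeq2 size factors move all genes alike, so they could not change this distance. Under TPM, unique reads and exon reads it was also -0.08. With the length trend removed it was -0.04, and with length and GC trends removed -0.05.

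With library totals the median was -0.12 at day 3 and 0.12 at day 5 over day 3. With TPM, which moved the background median by -0.11 at day 3 and 0.10 at day 5 over day 3, these were -0.16 and 0.12. At day 3, 21 members (18.9%) were then at least 20% lower under either, against 8.30% and 11.3% of the background. Under either, 0 were at least 25% higher, against 1.80% and 1.13%. With library totals 2 (1.80%) were 1.5-fold lower, against 0.586%. At day 5 over day 3, 21 (totals) and 22 (TPM) were at least 25% higher, against 10.7% and 12.7% of the background, and 1 and 2 were 1.5-fold higher, against 0.689% and 0.923%. DESeq2 size factors gave 1 and exon reads 2 members at least 20% lower at day 5 over day 3. The background shares were then 7.01% and 7.49%.

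With the length trend removed, the day 3 median was -0.018, with 7 lower and 1 higher by the 20% and 25% rule. At 1.5-fold 0 were lower, against 0.176% of the background. At day 5, 5 (4.50%) were higher by the first rule, against 3.61%. With length and GC trends removed, 6 were lower and 1 higher by that rule at day 3, with 0 lower at 1.5-fold. At day 5, 1 was lower and 1 higher (0.901% each), against 1.49% and 2.02% of the background. At day 5 over day 3, 2 (1.80%) were lower and 0 higher, against 2.10% and 1.54%.

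The background was not redrawn for the other sets of members below, so their counts stand without a share of like genes. Ratios of genes with few reads hold more counting error, and its part in these counts was not tested. A minimum of 100 reads (213 genes) gave 28 lower and 7 higher by that rule and 8 and 2 at 1.5-fold at day 3. At day 5 it gave 10 and 10, then 1 and 1, and at day 5 over day 3 it gave 7 and 27, then 3 and 9. With only 1 read required in each library (272 genes) these were 35 and 7, then 15 and 2 at day 3, 17 and 12, then 6 and 3 at day 5, and 8 and 31, then 4 and 13 at day 5 over day 3. A minimum of 1000 reads (28 genes) left 2 lower and 2 higher by that rule at day 3, and 0 and 0 at 1.5-fold. By that rule it left 0 lower and 0 higher at day 5, and likewise at day 5 over day 3. Without the uniqueness minimum (193 genes) 15 were lower and 4 higher by that rule at day 3. At day 5 these were 3 and 7, and at day 5 over day 3 they were 0 and 18. Without overlapping members (88 genes left) 3 were lower and 1 higher at day 5. Apart from the changes of scale and of minimum, the cause of these differences was not tested.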
